A study of Homo sapiens with 12 samples.

Results

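Sestrins, DDIT4 and the genes of the mTOR kinase complexes connect cell stress to protein synthesis. In HEK293T cells 48 h after transfection with dCas9-VP160, the sestrin genes SESN2 and SESN3 differed from cells without plasmid in opposite directions. SESN2 was 1.57-fold higher and SESN3 was 2.04-fold lower, while SESN1 and DDIT4 did not pass the test. The genes were chosen by name for their place in this pathway: the sestrins SESN1, SESN2 and SESN3, the inhibitors DDIT4, DEPTOR, TSC1 and TSC2, the complex members RPTOR and MTOR, and the downstream kinase EEF2K. They are 10 of 60604 genes in the deposited count table, and all 10 passed the filter on low counts.

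HEK293T is a line from human embryonic kidney. It makes the simian virus 40 large T antigen, a protein that binds p53. dCas9-VP160 is a Cas9 that does not cut DNA, fused to copies of the VP16 activation domain, and guide RNAs direct it to a promoter. The 12 libraries form 3 groups of 4. The cells without plasmid received transfection reagents according to the protocol, although the series' design calls the controls non-transfected. The second group received a vector labelled sgRNA-dCas9-VP160-P2A-EGF, and the third received that vector with 6 guide RNAs against the CD34 promoter, named CD34-gRNAs in the labels. Plasmid DNA totalled 5.4 pmol in each transfected dish. A plasmid lacking dCas9-VP160 was given to none of the groups, so the plasmid, the vector's other parts and the fusion protein cannot be told apart. If the controls were non-transfected, the transfection reagents cannot be told apart from these either. Each group was assayed in 2 batches of cells, called experiments 1 and 2, with 2 technical replicates in each. The technical replicates were summed, so n = 2 experiments per group. The difference between the batches was taken out in the fit. The p-values therefore measure only how unevenly group differences repeated over these 2 batches of 1 cell line, with the spread moderated across genes.

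mTORC1, the complex of the kinase mTOR with RPTOR (raptor), promotes protein synthesis and restrains autophagy when nutrients and growth factors are present. The TSC1-TSC2 complex holds it back by acting on the GTPase RHEB, and sestrins hold it back when amino acids are scarce by binding GATOR2, with SESN2 serving as a leucine sensor. DDIT4 (REDD1) acts through TSC2 in hypoxia and other stress, and DEPTOR binds mTOR itself. These proteins are controlled largely by phosphorylation, binding and turnover, and the data hold RNA levels only.

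The stretches upstream of the transcription starts are shown for the sestrins that differed in opposite directions, for DDIT4 as a stress gene that did not pass the test, and for EEF2K. They are RefSeq sequences on GRCh38.p14, 5′ to 3′ on the gene's strand, ending before both the RefSeq start and the GENCODE 29 gene bounds. SESN2 lies on the plus strand (chr1:28259268-28259517), SESN3 on the minus strand (chr11:95232542-95232725), DDIT4 on the plus strand (chr10:72273674-72273919) and EEF2K on the plus strand (chr16:22206028-22206277). Capitals mark the letters ACGTG and GCGTG, cores of hypoxia response elements, and CACGTG, an E-box, which contains ACGTG, on either strand.
SESN2: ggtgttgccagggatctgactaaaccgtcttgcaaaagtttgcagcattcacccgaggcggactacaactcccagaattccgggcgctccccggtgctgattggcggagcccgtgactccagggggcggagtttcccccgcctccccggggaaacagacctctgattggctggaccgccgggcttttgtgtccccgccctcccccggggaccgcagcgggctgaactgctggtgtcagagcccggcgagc
SESN3: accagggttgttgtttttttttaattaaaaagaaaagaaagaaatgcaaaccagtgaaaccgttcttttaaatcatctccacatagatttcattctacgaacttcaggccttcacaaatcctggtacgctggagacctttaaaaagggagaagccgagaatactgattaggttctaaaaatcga
DDIT4: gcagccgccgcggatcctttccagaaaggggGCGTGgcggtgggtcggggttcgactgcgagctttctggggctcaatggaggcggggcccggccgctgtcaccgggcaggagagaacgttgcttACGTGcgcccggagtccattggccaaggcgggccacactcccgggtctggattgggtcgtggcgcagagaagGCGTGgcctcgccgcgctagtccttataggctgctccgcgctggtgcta
EEF2K: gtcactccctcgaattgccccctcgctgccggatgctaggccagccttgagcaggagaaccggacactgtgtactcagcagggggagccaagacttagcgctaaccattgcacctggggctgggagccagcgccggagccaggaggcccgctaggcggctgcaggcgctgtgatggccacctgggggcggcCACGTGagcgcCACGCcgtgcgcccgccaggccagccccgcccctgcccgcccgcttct

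The windows searched run from 250 bases before to 50 bases after each RefSeq start, on both strands. Of the 10 genes, 9 have such windows, 12 in all, with 3 starts for SESN1 and 2 for TSC2. None of the letters searched occurred in the windows of SESN2, SESN3 or TSC1. The DDIT4 window holds ACGTG beginning 125 bases before the start, and GCGTG at 219 and 53 bases before it and at position 25 after it. GCGTG also occurs in the windows of RPTOR, MTOR, EEF2K and the second SESN1 start. ACGTG also occurs in those of EEF2K and the first TSC2 start. Over 35116 RefSeq promoters, 21.4% hold ACGTG and 36.5% hold GCGTG. In EEF2K, CACGTG begins 59 bases before the start, and 7.26% of promoters hold it. TGATGNAA, the core of the composite element bound by ATF4 and C/EBP factors, occurs in 3.62% of promoters and was found in 1 of the 12 windows, that of the first TSC2 start, where it overlaps an E-box. The p53 decamer motif, held by 6.63% of promoters, was found at the third SESN1 start. Both matches are shown within 30 bases, with the matched letters in capitals, for TSC2 on the plus strand (chr16:2047865-2047894) and for SESN1 on the minus strand (chr6:109009019-109009048).
TSC2: ccccgtCACGTGATGCAAggatcgccggcc
SESN1: cattgtcgtctGGACAAGTCTccacaagtc

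A match is a description of the letters, and binding was not measured.

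Total gene counts were 6750035 to 11932244 per library, with 26115 to 28418 genes detected. CD34, the gene addressed by the guides, had 664 to 942 counts in the libraries with guides, 7 to 10 with dCas9-VP160 alone and 13 to 28 without plasmid. All 9 markers of HEK293 cells had counts, with KRT8 the highest in every group, while the kidney marker PAX2 reached at most 1.18 CPM. CPM are counts normalised for library size, by library totals for the cell type markers and with TMM factors for all other levels. PTPRC, the defining haematopoietic marker, was at 0 except for up to 0.113 CPM with guides. Mitochondrially encoded genes took 8.31 to 8.78% of counts without plasmid and 5.14 to 5.63% with dCas9-VP160. With guides their share was 5.57% and 5.59% in replicate 1 but 7.50% and 7.44% in replicate 2. With these genes left out, the 7 calls described next for dCas9-VP160 against no plasmid were unchanged. For guides against no plasmid, also described below, TSC1 alone of the 10 genes lost its call in that fit (edgeR adjusted p = 0.0528). The cells of a group and the RNA per cell cannot be told apart in these bulk libraries.

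dCas9-VP160 against no plasmid asks how the genes differ in cells transfected with the vector without a guide. Genes were tested with edgeR's quasi-likelihood test over 19662 genes, with the experiment as a block, and called at an adjusted p under 0.05. Of the 10 genes, 2 were called higher (SESN2 and MTOR), 5 lower (SESN3, DEPTOR, TSC2, RPTOR and EEF2K) and 3 neither way (SESN1, DDIT4 and TSC1). Among all genes tested, 26.6% were called higher and 24.6% lower. The median log2 fold change of the 10 genes was -0.17, and that of all genes was -0.0020.

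**Figure D1:**
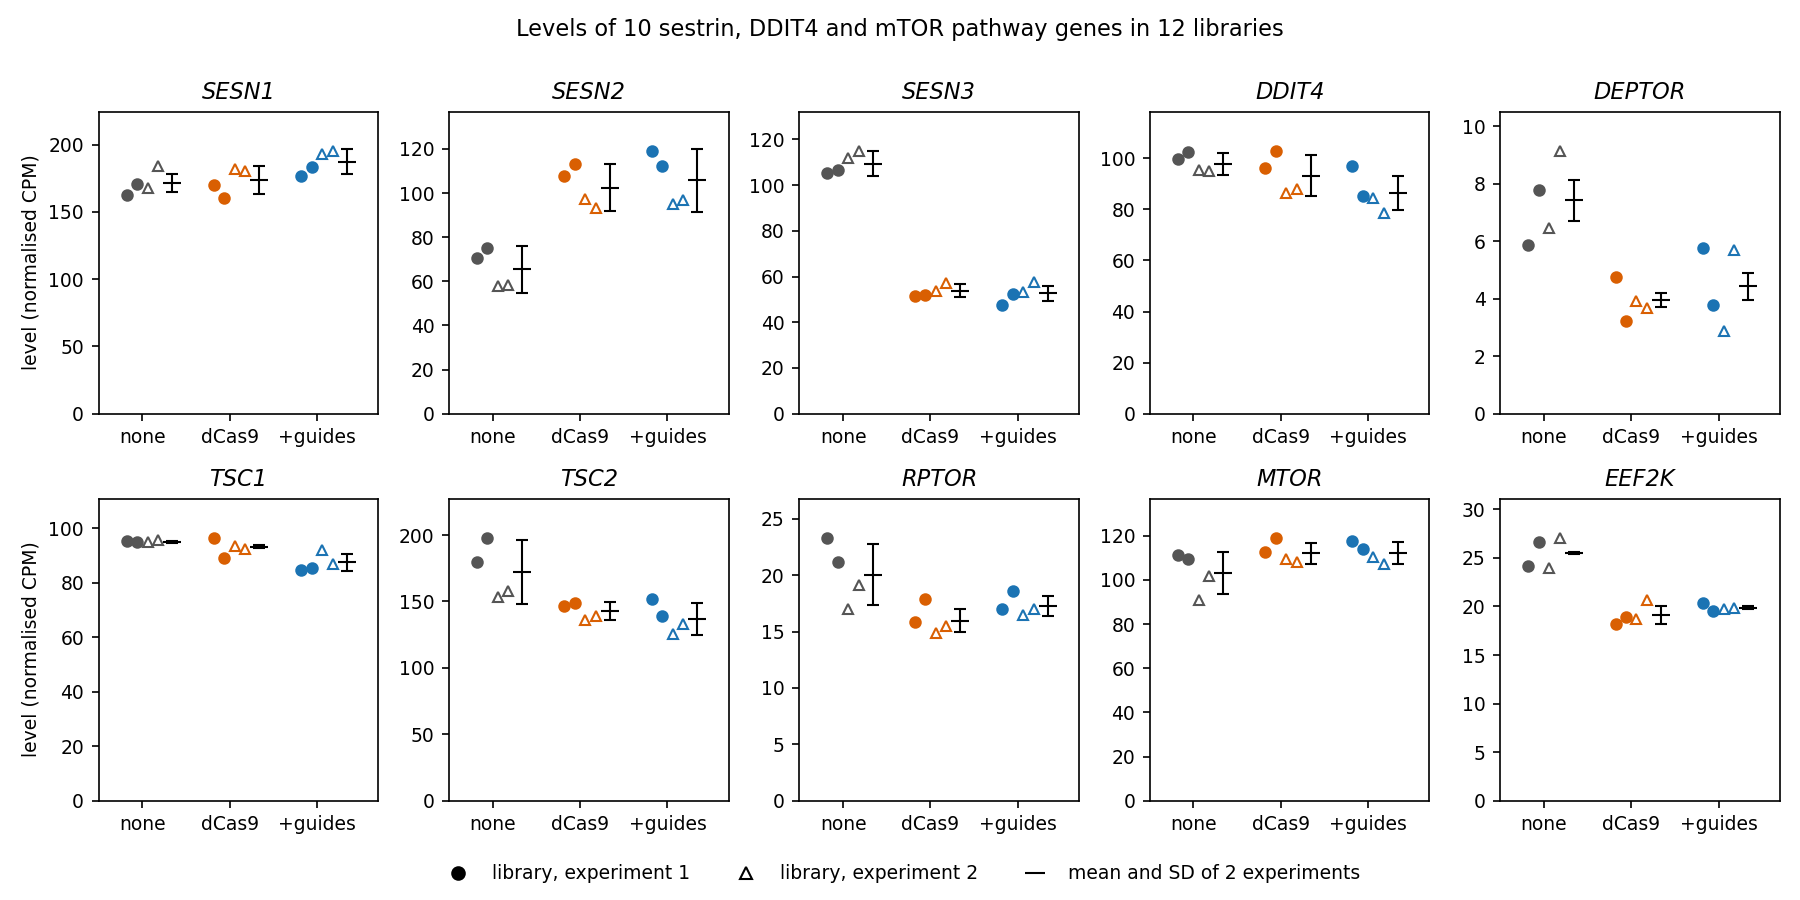
Level of each gene in every library, in TMM-normalised CPM on an axis from 0, without plasmid (none), with dCas9-VP160 and with dCas9-VP160 and guides. Filled circles are libraries of experiment 1, open triangles those of experiment 2, and the black mark is the mean with the SD of the 2 experiments. SESN2 libraries with dCas9-VP160 lie above, and SESN3 libraries below, all libraries without plasmid.

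SESN2, the leucine-sensing sestrin and a known target of ATF4, had 70.5 and 75.2 CPM in experiment 1 and 57.7 and 58.5 CPM in experiment 2 without plasmid. With dCas9-VP160 it had 108 and 113 CPM, then 97.2 and 93.3 CPM. All 4 libraries with dCas9-VP160 lay above all 4 without plasmid. Mean levels were 65.4 ± 10.6 and 102 ± 10.5 CPM (SD, n = 2), a log2 fold change of 0.65 (SE 0.05, edgeR adjusted p = 3.34e-11). The difference was 0.59 in experiment 1 and 0.71 in experiment 2.

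SESN3, the sestrin known as a target of FOXO factors, had 105 and 106 CPM in experiment 1 and 112 and 115 CPM in experiment 2 without plasmid. With dCas9-VP160 the values were 51.7, 51.8, 53.8 and 57.2 CPM. The groups were far apart, and the technical replicates lay close together. Means were 109 ± 5.47 and 53.8 ± 2.83 CPM (SD, n = 2), with a log2 fold change of -1.03 (SE 0.05, edgeR adjusted p = 5.48e-15). Both experiments gave nearly the same difference, -1.03 and -1.02.

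SESN1, a sestrin induced by p53, did not pass the test at 171 ± 6.93 CPM without plasmid and 174 ± 10.5 CPM with dCas9-VP160 (SD, n = 2; log2 fold change 0.02, SE 0.04, edgeR adjusted p = 0.727). Its libraries ranged from 162 to 184 CPM without plasmid and from 160 to 182 CPM with dCas9-VP160, so the groups overlapped. The antisense gene AL390208.1 shares 7.09% of SESN1's exonic bases and had 181 to 377 counts per library. It was not called either (log2 fold change 0.10, edgeR adjusted p = 0.291).

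Per kilobase of merged exons, the 3 sestrins together had 62.8 ± 1.20 CPM without plasmid and 68.7 ± 0.734 CPM with dCas9-VP160 (SD, n = 2). SESN1 made up 53.3% ± 3.17 of that sum without plasmid and 49.4% ± 3.50 with dCas9-VP160. SESN2 made up 30.2% ± 4.31 and 43.2% ± 3.97, and SESN3 made up 16.5% ± 1.14 and 7.41% ± 0.468. The ratio of SESN2 to SESN3 was 2.11 and 1.57 in the experiments without plasmid and 6.50 and 5.22 with dCas9-VP160. These shares are descriptions with no test of their own, and they depend on the length used. By the principal transcript, a length chosen after the data were seen, SESN1 made up 61.6% without plasmid and 58.4% with dCas9-VP160. SESN2 then made up 23.9% and 35.0%, and SESN3 14.5% and 6.64%. The ratio of SESN2 to SESN3 was 1.91 and 1.42 in the experiments without plasmid and 5.88 and 4.72 with dCas9-VP160.

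DDIT4, the stress-induced inhibitor that acts through TSC2, had 99.8, 102, 95.6 and 94.9 CPM without plasmid and 96.1, 103, 86.5 and 88.1 CPM with dCas9-VP160. The groups overlapped in experiment 1, and in experiment 2 both transfected libraries were the lower. The means of 97.9 ± 4.22 and 93.2 ± 8.08 CPM (SD, n = 2) gave a log2 fold change of -0.07 (SE 0.05, edgeR adjusted p = 0.213). DDIT4-AS1, an antisense gene, shares 41.2% of DDIT4's exonic bases and had 366 to 671 counts per library. The series' design calls the RNA-seq directional, whereas the named kits do not mark strand. If strand was not used in counting, reads of these genes cannot be told apart, so both values are uncertain. The log2 fold change of DDIT4-AS1 was -0.07 (adjusted p = 0.348).

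DEPTOR, which binds mTOR and inhibits it, was the least abundant of the 10 in reads, with 22 to 98 counts per library. Its values without plasmid were 5.86, 7.78, 6.47 and 9.15 CPM, and those with dCas9-VP160 were 4.74, 3.22, 3.93 and 3.67 CPM. The groups did not overlap. DEPTOR fell from 7.43 ± 0.707 to 3.96 ± 0.251 CPM (SD over 2 experiments; log2 fold change -0.91, SE 0.16, edgeR adjusted p = 2.58e-05). In the replicate 1 libraries alone the difference was -0.50 and was not called (adjusted p = 0.0842). The non-coding gene AP005717.1 on the opposite strand shares 9.61% of DEPTOR's exonic bases, with 2 to 16 counts per library and a log2 fold change of -0.63 (edgeR adjusted p = 0.154).

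TSC2, the GTPase-activating subunit of the TSC complex, had 180, 198, 154 and 158 CPM without plasmid. With dCas9-VP160 it had 147, 149, 136 and 139 CPM, all below the libraries without plasmid. Its mean fell from 172 ± 24.0 to 143 ± 7.12 CPM (SD over 2 experiments; log2 fold change -0.26, SE 0.05, edgeR adjusted p = 1.90e-05). Without the block for experiments the call was lost (adjusted p = 0.0919). TSC2 shares 778 exonic bases with PKD1 on the opposite strand, 3.96% of its own, and PKD1 was lower too (log2 fold change -0.66). It also shares 402 exonic bases (2.05%) with NTHL1 on the opposite strand, which was not called (log2 fold change -0.12, edgeR adjusted p = 0.130). Without strand, a part of the reads could belong to any of these genes.

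TSC1, the partner that stabilises TSC2, stood at 94.9 ± 0.252 and 93.2 ± 0.511 CPM (SD, n = 2) and did not pass the test (log2 fold change -0.03, SE 0.05, edgeR adjusted p = 0.669). Its libraries with dCas9-VP160 ranged from 89.0 to 96.5 CPM, around the narrow range of 94.9 to 95.7 CPM without plasmid.

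RPTOR, the subunit that presents substrates to mTORC1, had 23.3, 21.1, 17.0 and 19.1 CPM without plasmid and 15.9, 17.9, 14.8 and 15.5 CPM with dCas9-VP160. Its groups overlapped across experiments but not within either of them. The mean fell from 20.0 ± 2.73 to 16.0 ± 1.02 CPM (SD over 2 experiments; log2 fold change -0.33, SE 0.09, edgeR adjusted p = 0.00342). DESeq2 did not call it (adjusted p = 0.0850), nor did the fit without the block (0.0817) or experiment 2 alone (0.130).

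MTOR, the kinase itself, was 103 ± 9.45 CPM without plasmid and 112 ± 4.72 CPM with dCas9-VP160 (SD, n = 2). The difference of 0.12 (log2, SE 0.05, edgeR adjusted p = 0.0340) was the smallest of the 7 called. Library values of 90.7 to 111 CPM and 108 to 119 CPM overlapped. The call was lost under 11 of 25 alternatives, among them DESeq2 (adjusted p = 0.223) and 4 of the 12 fits that left out 1 library. These were the fits without replicate 1 of experiment 1 with guides (0.0743), without replicate 1 of experiment 2 with no plasmid (0.130), and without replicate 2 of experiment 1 (0.0650) or experiment 2 (0.0586) with dCas9-VP160.

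EEF2K, the kinase that inhibits elongation factor EEF2 and is itself inhibited downstream of mTORC1, had 24.1, 26.6, 23.9 and 27.1 CPM without plasmid. With dCas9-VP160 it had 18.2, 18.9, 18.7 and 20.7 CPM, with no overlap between the groups. Its mean fell from 25.5 ± 0.0947 to 19.2 ± 0.946 CPM (SD over 2 experiments; log2 fold change -0.41, SE 0.08, edgeR adjusted p = 1.23e-04). The calls of SESN2, SESN3 and EEF2K held under all 25 alternatives in this comparison. These alternatives are not independent, since 12 of them only left out 1 library. In the fits on 1 experiment or on unsummed libraries, the spread includes that of technical replicates.

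Library values without plasmid and with dCas9-VP160 did not overlap for 5 of the 10 genes (SESN2, SESN3, DEPTOR, TSC2 and EEF2K), beside 39.1% of 17975 genes in the fit on 12 libraries. Whether a difference varied between the experiments was tested with edgeR's interaction term on the 12 libraries as separate samples, where the spread comes from technical replicates. The term was called for 0 of the 10 genes, the smallest unadjusted p being 0.0667 for TSC2, against 0.0111% of genes tested. DESeq2 was not run for this term.

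**Figure D2:**
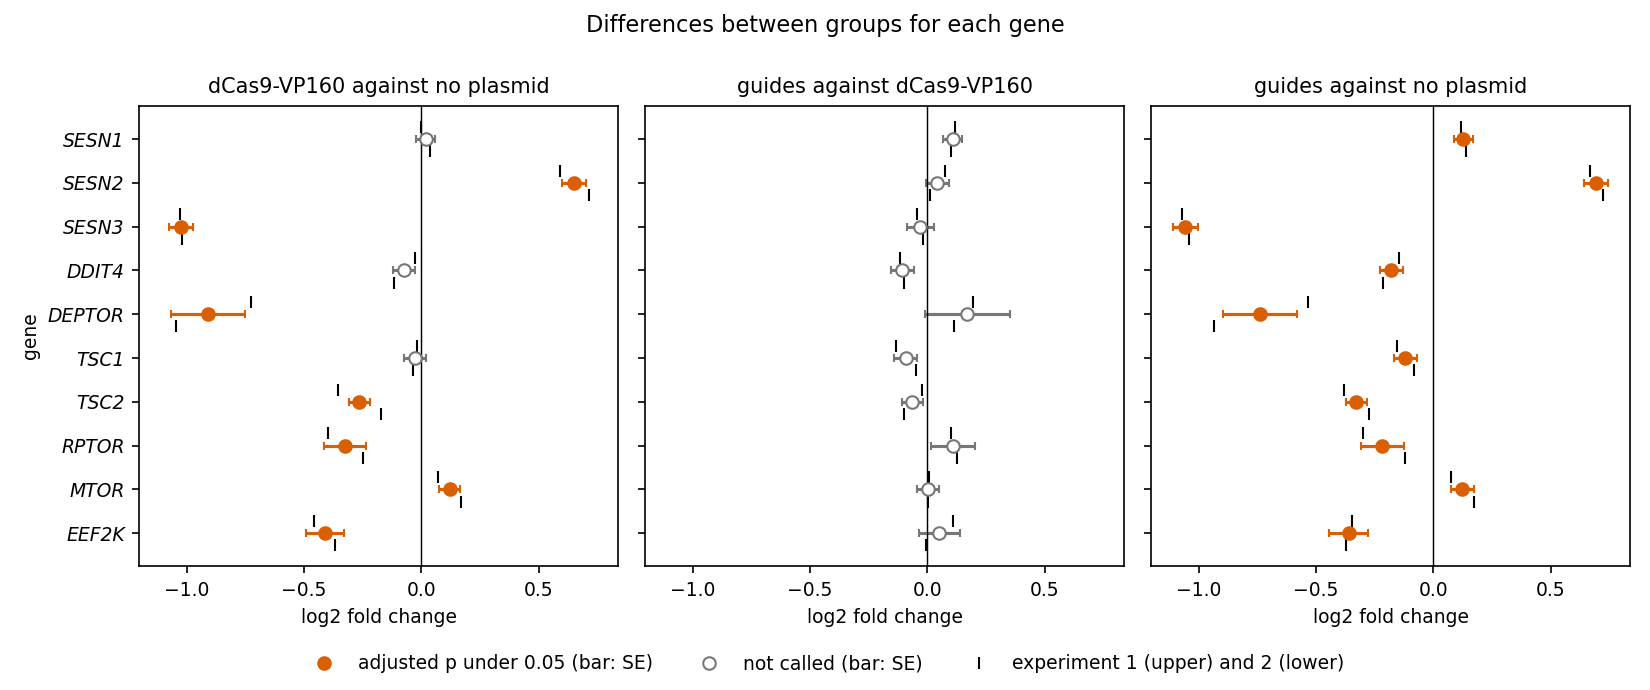
Log2 fold change of each gene in 3 comparisons, with the SE as a bar. Filled points passed an adjusted p under 0.05 in edgeR, open points did not, and the ticks give experiment 1 (upper) and experiment 2 (lower). The differences of guides against dCas9-VP160 lie between -0.11 and 0.17, and none is filled.

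Guides against dCas9-VP160 asks what guides for CD34 add. In that comparison edgeR called 0 of the 10 genes, beside 4.16% of all genes higher and 3.41% lower. At an unadjusted p under 0.05, 2 of the 10 passed, SESN1 and DDIT4, and DESeq2 called 0. SESN2 stood at 106 ± 14.2 CPM with guides (SD, n = 2; log2 fold change 0.04, SE 0.05, edgeR adjusted p = 0.682). SESN3 stood at 52.7 ± 3.36 CPM (log2 fold change -0.03, SE 0.06, edgeR adjusted p = 0.815). SESN1 had the smallest adjusted p of the 10, with libraries of 177, 183, 193 and 195 CPM beside 170, 160, 182 and 180 CPM with dCas9-VP160 (log2 fold change 0.11, SE 0.04, edgeR adjusted p = 0.104). DDIT4 had 97.1, 85.2, 84.4 and 78.5 CPM with guides, a log2 fold change of -0.11 (SE 0.05, edgeR adjusted p = 0.213). DEPTOR varied from 2.87 to 5.77 CPM among the 4 libraries with guides, which left its difference of 0.17 uncertain (SE 0.18, edgeR adjusted p = 0.649). Over both experiments together, all 10 genes had overlapping library values, beside 8.88% of genes without overlap. Within each experiment, the libraries with guides lay apart in the same direction for 2 of the 10, SESN1 (above) and TSC1 (below), beside 18.0% of genes in either direction. The test of the difference between experiments was called for 0 of 10 genes and for 0% of all genes, and the smallest unadjusted p among the 10 was 0.454 (TSC1).

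Guides against no plasmid shares its control libraries with the first comparison, so the values stand beside it and are not independent of it. In edgeR, 3 of the 10 genes were called higher (SESN1, SESN2 and MTOR) and 7 lower, where 26.7% of all genes were called higher and 25.9% lower. SESN2 was 1.62-fold higher (log2 0.69, SE 0.05, edgeR adjusted p = 9.04e-12) and SESN3 was 2.08-fold lower (log2 -1.06, SE 0.05, adjusted p = 3.10e-15). DEPTOR fell by 0.74 (log2, SE 0.16, edgeR adjusted p = 3.06e-04), EEF2K by 0.36 (SE 0.08, 5.92e-04) and TSC2 by 0.33 (SE 0.05, 9.27e-07). Library values did not overlap for these 5 genes and TSC1, 6 of 10, beside 41.2% of genes. The margin was narrow for DEPTOR, with at least 5.86 CPM without plasmid and at most 5.77 CPM with guides. For TSC2 these values were 154 and 152 CPM. From the replicate 1 libraries alone, DEPTOR (adjusted p = 0.0794) and EEF2K (0.0842) were not called.

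SESN1 and DDIT4 were called in this comparison, SESN1 higher at 187 ± 9.43 CPM (SD over 2 experiments; log2 0.13, SE 0.04, edgeR adjusted p = 0.00951) and DDIT4 lower at 86.5 ± 6.69 CPM (log2 -0.18, SE 0.05, adjusted p = 0.00323). DESeq2 called neither (adjusted p = 0.0683 and 0.0592). TSC1 (log2 -0.12, edgeR adjusted p = 0.0442) and RPTOR (log2 -0.22, 0.0457) passed narrowly. TSC1 at 87.5 ± 3.24 CPM was called in only 7 of 25 alternatives and RPTOR at 17.3 ± 0.862 CPM in only 9. Each was lost in 9 of the 12 fits without 1 library, with adjusted p of 0.0553 to 0.139 for TSC1 and 0.0509 to 0.156 for RPTOR. TSC1 kept its call without replicate 1 of experiment 2 with guides, without replicate 1 of experiment 2 with no plasmid and without replicate 2 of experiment 1 with dCas9-VP160. RPTOR kept its call without replicate 2 of experiment 1 or replicate 1 of experiment 2 with no plasmid, and without replicate 2 of experiment 2 with dCas9-VP160. MTOR (log2 0.12, edgeR adjusted p = 0.0292) lost its call under 10 of 25 alternatives, among them DESeq2 (adjusted p = 0.153). Of the fits without 1 library, it was lost without replicate 1 of experiment 1 (0.0963) or of experiment 2 (0.0775) with guides. The call was also lost without replicate 1 of experiment 2 with no plasmid (0.106).

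The 2 batches of cells were compared in the same fit. Of the 10 genes, edgeR called 1 higher in experiment 2 (SESN1) and 4 lower (SESN2, DDIT4, TSC2 and MTOR), where 12% of all genes were called higher and 12.2% lower. SESN2 was lower in experiment 2 in every group (log2 -0.27, SE 0.04, edgeR adjusted p = 2.08e-05), with 57.7 to 58.5 CPM against 70.5 to 75.2 CPM without plasmid. The difference between batches was -0.19 for TSC2 (adjusted p = 3.90e-04), -0.14 for DDIT4 (0.0108), -0.12 for MTOR (0.0214) and 0.10 for SESN1 (0.0228). Without replicate 1 of experiment 1 with guides, SESN1 (0.0850), DDIT4 (0.0983) and MTOR (0.0733) were not called. SESN1 was also lost without replicate 1 of experiment 1 (0.0844) or replicate 2 of experiment 2 (0.231) with no plasmid. SESN3 had a batch difference of 0.11 (adjusted p = 0.0633), which was called without replicate 2 of experiment 1 with guides (0.0479) or without replicate 1 of experiment 2 with no plasmid (0.0445).

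**Figure D3:**
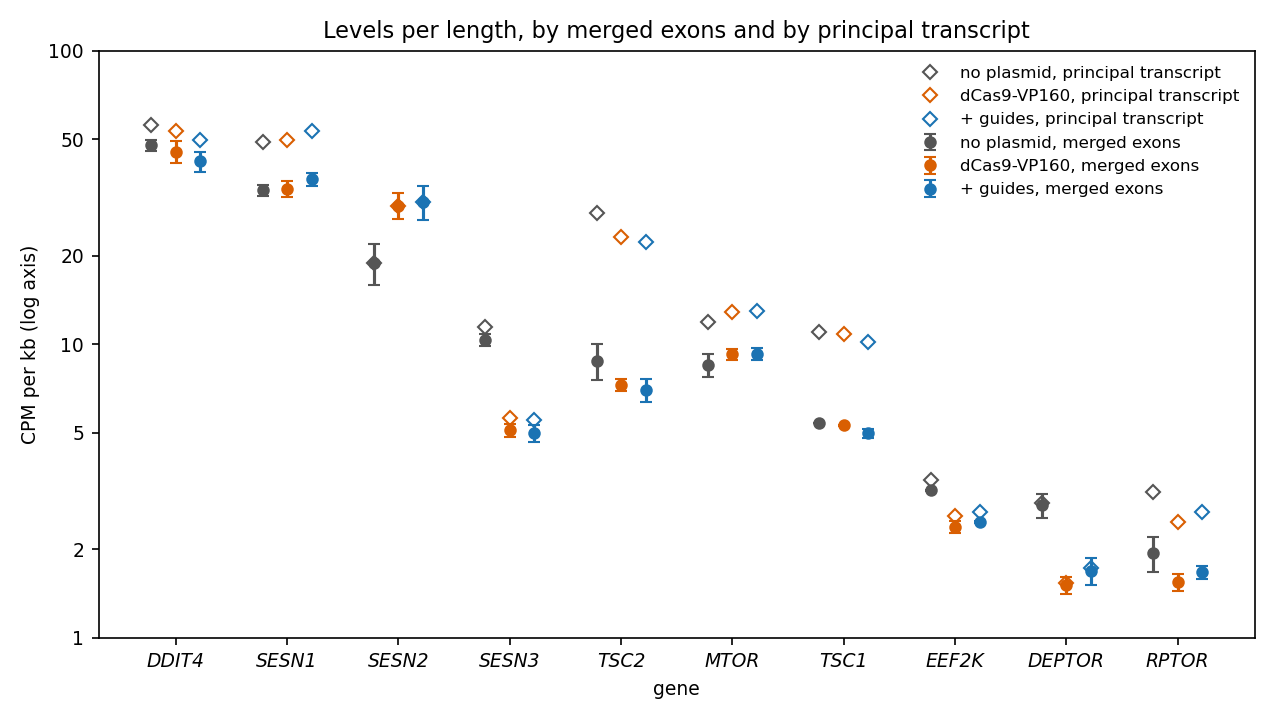
Level per kilobase (log axis) of each gene in the 3 groups. Filled circles use the length of merged exons, with the SD of 2 experiments as a bar, and open diamonds use the principal transcript alone. DDIT4 and SESN1 lie highest and DEPTOR, RPTOR and EEF2K lowest by either length.

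Levels between genes were compared per kilobase of merged exons. Without plasmid the order was DDIT4 at 47.6 CPM per kilobase, SESN1 at 33.5, SESN2 at 19.0, SESN3 at 10.4, TSC2 at 8.78, MTOR at 8.51, TSC1 at 5.39, EEF2K at 3.18, DEPTOR at 2.83 and RPTOR at 1.95. Of these neighbours, TSC2 and MTOR overlapped between experiments, and the others did not. With dCas9-VP160, SESN3 had 5.09 CPM per kilobase, below MTOR (9.24), TSC2 (7.28) and TSC1 (5.30), and SESN2 had 29.7. Per kilobase of the principal transcript, a choice made after the data were seen, TSC2 came to 27.9 and lay above SESN2 at 19.0 without plasmid. With dCas9-VP160 SESN2 at 29.7 lay above TSC2 at 23.2 by that length. TSC1 and TSC2 depended most on the length used, since their merged exons span 17600 and 19626 bases and their principal transcripts 8616 and 6164 bases.

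The genes whose levels were most alike in pattern were named by Pearson's correlation of log2(CPM + 1) over the 12 libraries, among 12253 genes with a mean of at least 5 CPM. The 12 points share 3 groups and 2 batches, so the values describe these libraries only. For SESN2 the nearest were SLC1A5 (0.988), a glutamine transporter, TRIM26 (0.987) and OAS3 (0.987). Those nearest to SESN3 were HEY1 (0.997), SELENOP (0.996) and CCDC152 (0.994). DDIT4 was nearest to NF2 (0.968), ARMC7 (0.960) and AGPAT1 (0.940). DEPTOR was nearest to ZFTA (0.916), PRR14L (0.906) and SEMA3F (0.906), with lower values than for the sestrins.

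Other genes of the pathway were counted in 6 lists by role, of which 89 of 93 genes could be tested. With dCas9-VP160 against no plasmid, 35 of the 89 (39.3%) were called higher and 31 (34.8%) lower in edgeR, beside 26.6% and 24.6% of all genes. Their median log2 fold change was 0.01, and that of all genes was -0.0020. IRS4, PIK3R2, CASTOR1 and EIF4EBP3 had at most 8 counts in any library and were not tested.

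**Figure D4:**
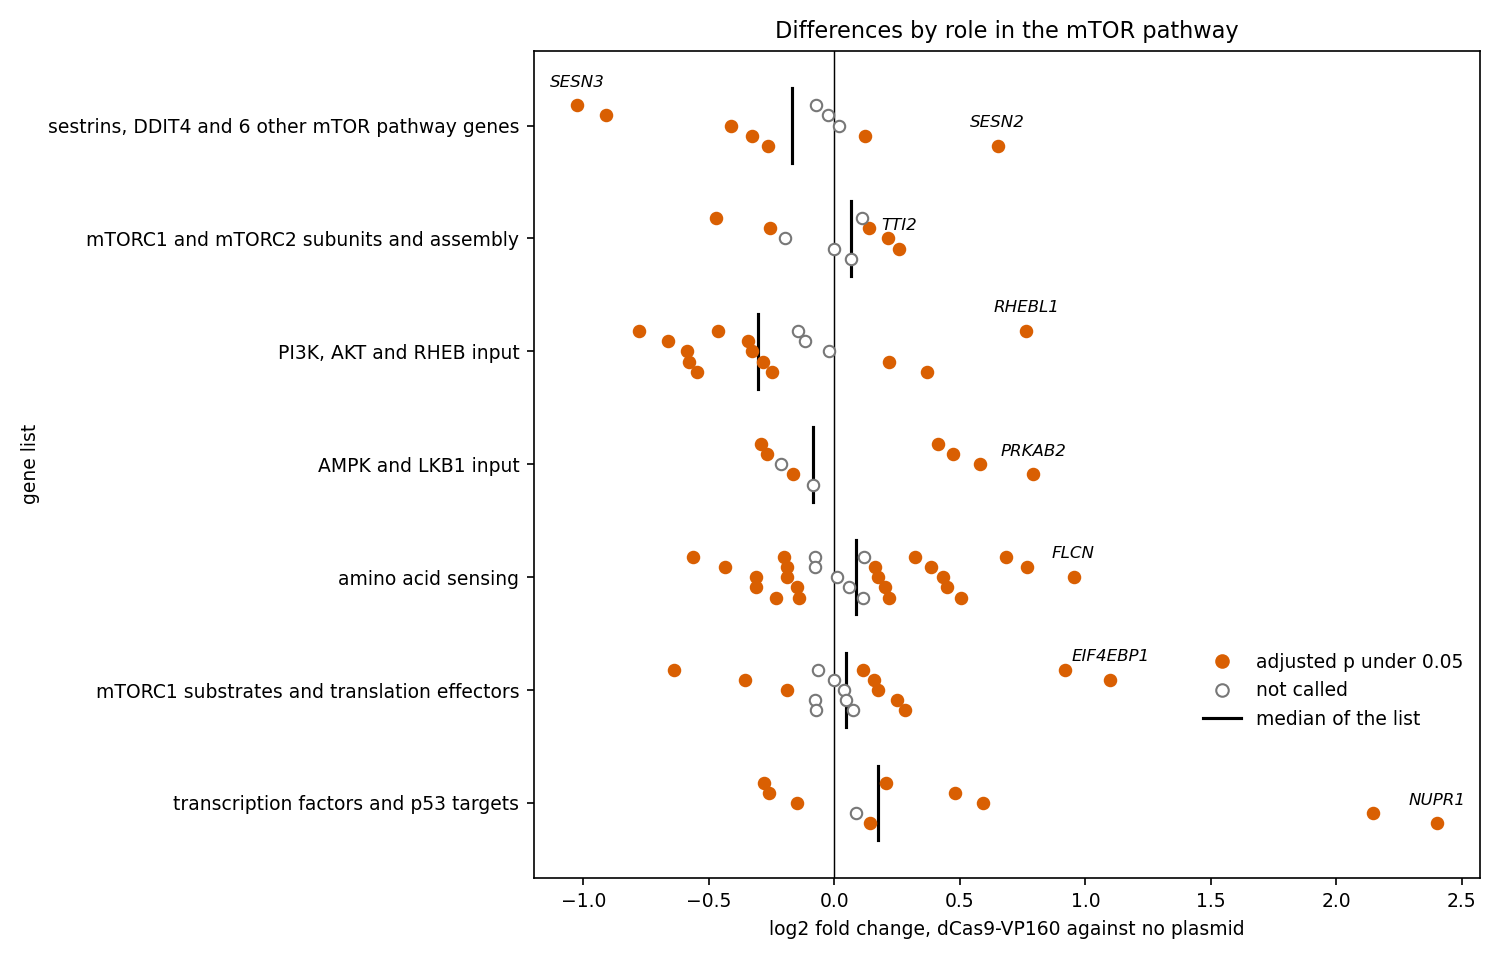
Log2 fold change of dCas9-VP160 against no plasmid for the 10 genes (top row) and for the other pathway genes by role. Each point is a gene, filled where edgeR's adjusted p was under 0.05, the bar is the list's median, and the highest gene of each list, with SESN3 in the top row, is named. Each list holds called genes on both sides of 0, and NUPR1 and DDIT3 lie farthest to the right.

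Around the mTOR complexes, 3 of 9 genes (33.3%) were called higher and 2 (22.2%) lower, shares near those of all genes (26.6% and 24.6%). The subunit MLST8 differed by 0.14 and MAPKAP1, of mTORC2, by 0.21, as did the assembly factor TTI2 (0.26). Its partners TELO2 (-0.47) and TTI1 (-0.26) were lower. The median log2 fold change of the list was 0.06.

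In the input from PI3K, AKT and RHEB, 3 of the 16 that could be tested (18.8%) were called higher and 10 (62.5%) lower, where 26.6% and 24.6% of all genes were. The median log2 fold change was -0.31. RHEB, the GTPase that TSC2 inactivates and that activates mTORC1, rose from 103 ± 11.1 to 133 ± 13.6 CPM (SD over 2 experiments; log2 0.37, SE 0.04, edgeR adjusted p = 1.03e-07). Its relative RHEBL1 (0.76) and the kinase gene PDPK1 (0.22) were higher too. AKT2 (-0.78), the receptor gene IGF1R (-0.66) and the adaptor gene IRS2 (-0.59) were the lowest of the list.

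Among genes of AMPK, which restrains mTORC1 when energy is low, and of its activator LKB1, 4 of 9 (44.4%) were higher and 3 (33.3%) lower, beside 26.6% and 24.6% of all genes. The AMPK subunits PRKAB2 (0.79) and PRKAB1 (0.58) and the LKB1 partner CAB39 (0.47) were higher, while STK11, which encodes LKB1 (-0.29), PRKAG2 (-0.27) and PRKAG1 (-0.16) were lower.

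For amino acid sensing, where the sestrins act, 12 of 28 genes (42.9%) were higher and 10 (35.7%) lower, beside 26.6% and 24.6% of all genes, with a median of 0.09. FLCN, a regulator of Rag GTPases, rose from 9.91 ± 0.0393 to 19.2 ± 0.906 CPM (SD over 2 experiments; log2 0.95, SE 0.10, edgeR adjusted p = 7.46e-09). RRAGD, a Rag GTPase, and KICS2, of the KICSTOR complex, were higher by 0.77 and 0.69. The GATOR1 gene DEPDC5 (-0.44) and the KICSTOR gene KPTN (-0.31) were lower. Members of KICSTOR therefore passed the test in both directions.

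Of 17 tested genes for mTORC1 substrates and translation, 7 (41.2%) were higher and 3 (17.6%) lower, beside 26.6% and 24.6% of all genes, with a median of 0.05. EIF4EBP1, the translation repressor that mTORC1 phosphorylates and a known ATF4 target, rose from 75.6 ± 3.15 to 162 ± 13.4 CPM (SD over 2 experiments; log2 1.10, SE 0.05, edgeR adjusted p = 6.53e-17). TFEB, a lysosomal regulator, was higher by 0.92 and the ribosomal protein gene RPS6 by 0.28. ULK1, an autophagy kinase (-0.64), PDCD4 (-0.36) and EIF4B (-0.19), both acting on translation initiation, were lower.

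In the list of transcription factors that act on the sestrin or DDIT4 promoters, with targets of p53, 6 of 10 genes were higher and 3 lower, beside 26.6% and 24.6% of all genes. The stress genes NUPR1 (2.40) and DDIT3 (2.15) had the largest differences, and ATF4 was higher by 0.59 at 199 ± 7.74 CPM beside 133 ± 11.3 CPM (SD, n = 2). CDKN1A, a p53 target (-0.28), FOXO1 (-0.26) and FOXO3 (-0.15) were lower. SESN2 and SESN3 differed in the directions of ATF4 and of the FOXO genes, and any part of these factors in their levels was not tested.

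With guides against dCas9-VP160, 7 of the 89 genes (7.87%) were called higher and 2 (2.25%) lower in edgeR, beside 4.16% and 3.41% of all genes. NUPR1 was higher by 0.61, PRKAB2 by 0.28, EIF4EBP2 by 0.18, DDIT3 by 0.17, EIF4EBP1 by 0.16, SEC13 by 0.16 and CDKN1A by 0.12 on the log2 scale. IRS2 (-0.32) and EEF2 (-0.14), the substrate of EEF2K, were lower. With guides against no plasmid, which shares its controls with the first comparison, 34 were higher and 34 lower (38.2% each), beside 26.7% and 25.9% of all genes.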

How the data were processed

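RNA sequencing measured 12 HEK293T libraries. Per the submitters' processing notes, Trim Galore 0.3.7, STAR 2.6.0c, Picard 2.17.1, DESeq2 1.16.1 and hg38 were used. Which counter and annotation release made the table was not stated in the sources used here. The deposited values are whole-number counts per gene, and the authors' table of comparisons was not used. The series' design names directional sequencing, whereas the SMART-Seq HT and Nextera XT kits do not mark strand.

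Counts of 92 spike-in sequences were left out. They were 0.719% and 0.404% of counts in experiment 1 without plasmid and at most 0.00818% elsewhere. Technical replicates were summed (16359839 to 20968535 counts per sum). edgeR 4.0.16 in R 4.3.3 (filterByExpr, TMM, robust quasi-likelihood test, experiment as block) was tested on simulated data, with Benjamini-Hochberg adjustment over all genes and calls at an adjusted p under 0.05. An SE is the absolute log2 fold change over the square root of F. Experiment numbers mark shared batches per the series' design, and batch differences correlated at 0.616 to 0.631 between groups over 12875 genes. Lengths come from GENCODE 29. DESeq2 1.42.0 was an alternative.

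The 10 genes, lists and tests were chosen with earlier results of these data known. All 10 are described, with up to 3 called genes of largest change per list, direction and comparison, except 1 gene that is not reported here.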

Additional observations from a re-analysis of the deposited data

How the results depend on the processing

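In 25 alternatives (22 between experiments), the direction of no called difference among the 10 genes was reversed. Of 970 values, 879 kept their side of the threshold, 88 lost a call and 3 gained one. Values that were not called could change sign, as for SESN1 with dCas9-VP160 against no plasmid (log2 fold change -0.06 to 0.10). SESN2 and SESN3 lost no call in the comparisons with no plasmid, and SESN2 lost none between experiments. The alternatives reuse the same libraries and are not independent of each other. Without the replicate block, that is without pairing by experiment, calls against no plasmid fell to 5564 genes and 4 of the 10 for dCas9-VP160 and to 6098 genes and 5 of the 10 with guides, and 1 gene was called for guides against dCas9-VP160. DESeq2 called 6174 genes for dCas9-VP160 against no plasmid, 360 for guides against dCas9-VP160, 6647 and 5 of the 10 for guides against no plasmid, and 2134 and 2 of the 10 between experiments. The main counts were 10070, 1487, 10347 and 4751.

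For guides against dCas9-VP160, replicate 1 alone gave 792 genes, replicate 2 alone 417, experiment 1 alone 446 and experiment 2 alone 292, and leaving out 1 library gave 723 to 1870. The lowest, 723, was without replicate 2 of experiment 2 with no plasmid, and 901 were called without replicate 1 of experiment 1 with guides. The share called higher was 54.9%, against 31.5% with library totals only and 75.0% by DESeq2. For guides against no plasmid, replicate 1 alone gave 8054 genes and 5 of the 10, replicate 2 alone 7577 and 6, and experiment 1 alone 7664 and 6. Between experiments, replicate 1 alone gave 3154 genes and 2 of the 10, and replicate 2 alone 2255 and 2. Leaving out 1 library gave 2 to 6 of the 10 there, and 2 without replicate 1 of experiment 1 with guides. In fits on 1 replicate or 1 experiment, fewer samples were tested, and other causes were not tested. DEPTOR had the fewest counts of the 10, as few as 22 in a library, which limits its precision.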
